A study of Mus musculus with 3 samples.

Results

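The 6 heart field regulators described here are Nkx2-5, Mef2c, Isl1, Hand1, Hand2 and Smyd1, chosen by symbol from the 31054 features counted in single cells of mouse embryos. Each of 3 wild-type whole embryos at embryonic day 8 (0-1 somites by the protocol, up to 2 by the stage label; strain C57BL/6 x 129 SvEv) was dissociated on its own and gave 1 library of cells captured with 10x Genomics 3' chemistry. All 3 carried no other genotype or treatment, the protocol says that extraembryonic tissue was dissected away, and only the cell classes within an embryo could be compared. The study was made to describe the left-right organizer, whose few cells are counted here among all other cells.

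The heart forms from a crescent of mesoderm at the front of the embryo, in which cells of the first heart field already make contractile proteins while cells of the second heart field, in the adjoining pharyngeal mesoderm, stay proliferative and join the heart later. Nkx2-5 encodes an NK2 homeodomain factor of cardiac progenitors, Mef2c a MADS-box factor that activates muscle genes, and Isl1 a LIM-homeodomain factor known from second heart field progenitors. Hand1 and Hand2 encode basic helix-loop-helix factors, of which Hand1 is also known from extraembryonic mesoderm and Hand2 from the limb and branchial arches. Smyd1 is not a sequence-specific factor but a muscle histone methyltransferase, a known target of Mef2c.

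All 6 symbols occur in the files and in the GENCODE annotation of GRCm38. Nkx2-5 (ENSMUSG00000015579) lies at chr17:26838664-26845009 on the minus strand, Mef2c (ENSMUSG00000005583) at chr13:83504034-83667080 on the plus strand and Isl1 (ENSMUSG00000042258) at chr13:116298281-116309689 on the minus strand. Hand1 (ENSMUSG00000037335) lies at chr11:57828705-57832818 on the minus strand, Hand2 (ENSMUSG00000038193) at chr8:57320983-57324633 on the plus strand and Smyd1 (ENSMUSG00000055027) at chr6:71213940-71322233 on the minus strand. No other annotated gene overlaps Nkx2-5, Mef2c, Isl1 or Hand1. Hand2 is overlapped on the opposite strand by the noncoding Hand2os1, and Smyd1 by 4 genes of the opposite strand, among them Krcc1. The sources used here do not say whether counting used the strand. Whether opposite-strand transcripts entered the counts of Hand2 and Smyd1 was not tested.

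The 250 bases upstream of a RefSeq start (the first of those listed for Mef2c) are shown for 4 of the 5 members that were higher in cardiac cells than in the rest of the embryo, read 5' to 3' on the gene's own strand in GRCm38. They are Mef2c at chr13:83503784-83504033 (plus), Isl1 at chr13:116309689-116309938 (minus, its last base in the annotated first exon), Hand2 at chr8:57320733-57320982 (plus, within Hand2os1) and Smyd1 at chr6:71262282-71262531 (minus, outside the exons but within the annotated gene, whose longest form starts further upstream). Capitals mark the letters GATAA, a core bound by GATA factors, and AAGTG, a core bound by NK2 homeodomain factors, on either strand.
Mef2c: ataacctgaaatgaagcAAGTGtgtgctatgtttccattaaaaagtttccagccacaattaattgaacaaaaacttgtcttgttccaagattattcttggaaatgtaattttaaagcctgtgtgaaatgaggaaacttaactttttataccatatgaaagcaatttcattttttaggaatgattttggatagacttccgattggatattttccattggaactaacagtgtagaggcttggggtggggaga
Isl1: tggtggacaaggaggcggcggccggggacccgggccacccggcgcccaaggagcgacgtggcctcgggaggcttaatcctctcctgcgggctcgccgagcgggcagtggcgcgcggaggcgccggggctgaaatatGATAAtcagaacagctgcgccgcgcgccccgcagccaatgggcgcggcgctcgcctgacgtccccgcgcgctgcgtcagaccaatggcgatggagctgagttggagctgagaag
Hand2: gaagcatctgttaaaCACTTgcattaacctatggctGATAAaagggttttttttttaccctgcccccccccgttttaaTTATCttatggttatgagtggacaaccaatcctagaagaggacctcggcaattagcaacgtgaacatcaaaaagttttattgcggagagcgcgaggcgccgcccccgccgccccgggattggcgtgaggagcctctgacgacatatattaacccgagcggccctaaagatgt
Smyd1: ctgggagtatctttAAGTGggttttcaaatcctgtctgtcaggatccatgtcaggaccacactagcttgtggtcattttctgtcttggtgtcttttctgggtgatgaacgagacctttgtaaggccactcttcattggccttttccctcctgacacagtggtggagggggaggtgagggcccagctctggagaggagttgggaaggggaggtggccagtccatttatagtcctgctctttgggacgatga
Hand2 holds 2 matches of GATAA and 1 of AAGTG, Isl1 holds 1 of GATAA, and Mef2c and Smyd1 hold 1 of AAGTG each. No match overlaps another. Of 32851 RefSeq windows of this length, 22.58% hold GATAA and 40.71% hold AAGTG, so these matches are common. The window of Nkx2-5, the remaining one of the 5, overlaps an annotated exon of the gene and is not shown. It holds none of these letters. The second window of Mef2c, which also overlaps an exon and is not shown, holds 2 matches of GATAA and 1 of AAGTG. The third holds 1 of AAGTG. A core bound by MEF2 factors, found in 3.2% of the windows, is in none of these windows. A match describes letters only, and binding was not measured.

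The 3 libraries held 23533 barcodes, of which 21595 passed quality control with median depths of 27635, 14615 and 16332.5 UMIs (unique molecular identifiers, each counted as 1 molecule). Cells were placed in 16 classes by the UMIs of marker genes that exclude the 6 members, and each class is called by its markers, for example cardiac-like for 10 sarcomere genes. A class was given to 16705 cells (77.4%), and the rest had markers of 2 classes, low marker scores or epithelial markers. A cell was called Myl7-positive when Myl7, an atrial myosin light chain gene already used by the crescent, exceeded the 99th percentile of the ectodermal, neural, endodermal and erythroid cells of that embryo (1.43, 1.63 and 2.07 UMIs per 10000). Pairs of libraries shared 18 to 22 barcodes. Embryo 1 stood apart by holding 2 erythroid-like cells, against 857 and 309 in the other embryos, and by its depth.

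The cardiac-like class held 88, 215 and 74 Myl7-positive cells in embryos 1, 2 and 3, and 4 Myl7-negative cells in all. Its sums carried 2966 to 5669 CPM (UMIs per 1000000 of the class sum) of the 10 sarcomere markers, against 78.0 to 111 CPM in the Myl7-negative cardiopharyngeal-like class. That class was marked by genes that include Tbx1, Fgf10, Eya1 and Foxc2. It held 140, 141 and 132 Myl7-negative cells and 318 to 383 CPM of its own markers. Of its 10 leading genes 2 were its own markers, and others included Alx1, Twist1 and Tcf15, the last a marker of the somitic-like class. The study uses the term cardiopharyngeal where Tbx1 overlaps Isl1 or Nkx2-5, and places head mesoderm with Tbx1 in paraxial mesoderm. Of these Myl7-negative cells 18.9% to 23.6% had a UMI of Nkx2-5 and 39.4% to 57.9% of Isl1. Head mesoderm was not told apart within the class. A further 96, 25 and 34 cardiopharyngeal-like cells and 53, 47 and 49 lateral-plate-like cells were Myl7-positive.

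Nkx2-5 was highest in the Myl7-positive cardiac-like cells, at 109, 133 and 106 CPM in embryos 1, 2 and 3 (116 ± 14.7, mean ± SD, n = 3 embryos). Every embryo's cardiac value lay above every value of the other classes, among 20 kinds of class sums that held enough cells to be put in order. It fell next to 60.3 ± 29.8 CPM in Myl7-positive lateral-plate-like cells and 42.6 ± 16.6 CPM in Myl7-positive cardiopharyngeal-like cells, 2 levels that overlapped between embryos. Myl7-negative cardiopharyngeal-like cells held 16.8, 21.7 and 15.8 CPM, overlapping the Myl7-positive endothelium-like cells at 20.2 ± 6.16 CPM and the definitive-endoderm-like cells at 14.3 ± 8.10 CPM. The lowest class mean, 0.318 CPM over 2 embryos, was that of the erythroid-like cells.

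At least 1 UMI of Nkx2-5 was found in 80.9% ± 1.79 of Myl7-positive cardiac-like cells (median depth 16673 UMIs) and in 0.395% ± 0.101 of erythroid-like cells (n = 2, median depth 15184.5 UMIs), a type that should lack the gene. With every cell thinned to 5000 UMIs the cardiac share was 49.3% ± 4.06. Among all Nkx2-5-positive cells of an embryo, 51.3%, 50.6% and 44.6% were Myl7-positive, whereas 10.3%, 7.40% and 6.37% of all kept cells were. The cardiac-like cells held 25.8% ± 13.5 of the gene's UMIs and cells without a class 27.4% ± 6.35.

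Mef2c in Myl7-positive cardiac-like cells stood at 735, 526 and 521 CPM in the 3 embryos (594 ± 122). The Myl7-positive lateral-plate-like cells followed at 366, 225 and 394 CPM, and the Myl7-positive cardiopharyngeal-like cells at 81.0, 154 and 96.5 CPM. None of the first 2 of these 3 levels overlapped the next below it. Myl7-negative cardiopharyngeal-like cells had 56.2, 62.8 and 35.4 CPM, a level that overlapped Myl7-positive extraembryonic-mesenchyme-like cells (86.7 ± 38.8 CPM) and Myl7-positive endothelium-like cells (34.8 ± 9.59 CPM). The gene was detected in 99.2% ± 1.34 of Myl7-positive cardiac-like cells, in 92.1% ± 5.09 of them after thinning, and in 4.24% ± 1.42 of erythroid-like cells.

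Isl1 was spread over more classes, and its leading levels could not be put in order. Myl7-positive cardiac-like cells had 115, 65.7 and 84.5 CPM, allantois-like cells 88.7, 87.8 and 75.9 CPM, and Myl7-positive lateral-plate-like cells 101, 59.2 and 85.9 CPM. Definitive-endoderm-like cells had 96.5, 71.7 and 51.7 CPM. The first 5 classes, which also include the Myl7-positive cardiopharyngeal-like cells at 70.5 ± 2.69 CPM, overlapped from each to the next. Myl7-negative cardiopharyngeal-like cells had 55.5, 64.6 and 44.2 CPM. Detection was 69.3% ± 15.7 in Myl7-positive cardiac-like, 46.6% ± 9.87 in Myl7-negative cardiopharyngeal-like and 2.95% ± 0.867 in erythroid-like cells, and 34.1% ± 10.1, 22.3% ± 0.508 and 0.571% ± 0.350 of them after thinning. Isl1 is also known from foregut endoderm. Of Isl1-positive cells, 20.4%, 15.5% and 15.7% in embryos 1, 2 and 3 were Myl7-positive (17.2% ± 2.77). Of all kept cells, 10.3%, 7.40% and 6.37% were.

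Hand1 had a different order. Myl7-negative extraembryonic-mesenchyme-like cells (marked by Bmp4, Ahnak, Postn and Pmp22) had 446, 532 and 473 CPM and allantois-like cells 528, 434 and 459 CPM, which overlapped. Myl7-negative lateral-plate-like cells were lower in every embryo, at 228, 211 and 259 CPM. Myl7-positive cardiac-like cells had 36.7, 86.7 and 31.3 CPM, with embryo 2 far above the other two. Myl7-positive lateral-plate-like cells had 75.3, 121 and 50.7 CPM, each below the Myl7-negative value of the same embryo. Hand1 was detected in 97.2% ± 1.76 of Myl7-negative extraembryonic-mesenchyme-like cells, in about 31% of Myl7-positive cardiac-like cells of each embryo (30.2% to 31.8%) and in 6.48% ± 0.909 of erythroid-like cells. Myl7-positive extraembryonic-mesenchyme-like cells had it as well, in 34 of 36, 45 of 51 and 53 of 57 cells of embryos 1, 2 and 3. After thinning the cardiac share was 13.9% ± 5.24, and the erythroid share 1.69% ± 0.0964.

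Hand2 reached 148, 124 and 160 CPM in Myl7-positive lateral-plate-like cells and 146, 123 and 154 CPM in Myl7-positive cardiac-like cells, 2 classes that overlapped. Below them came Myl7-positive extraembryonic-mesenchyme-like cells at 93.1 ± 13.5 CPM, allantois-like cells at 73.8 ± 6.41 CPM and Myl7-negative lateral-plate-like cells at 63.4 ± 4.69 CPM, again with overlap between neighbours. Myl7-negative cardiopharyngeal-like cells had 18.5, 18.0 and 29.2 CPM. In both lateral-plate-like and extraembryonic-mesenchyme-like cells the Myl7-positive cells had more Hand2 than the Myl7-negative cells of the same embryo, in 3 of 3 embryos. Detection was 90.7% ± 5.51 in Myl7-positive cardiac-like cells, 51.1% ± 6.08 after thinning, and 4.25% ± 2.22 in erythroid-like cells.

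Smyd1 was sparse, with 535 UMIs in all kept cells. It stood at 15.1, 26.2 and 8.64 CPM in Myl7-positive cardiac-like cells (37, 102 and 13 UMIs), above every value of the other kinds of class sums put in order. The next class means were 3.21 ± 2.27 CPM in Myl7-positive extraembryonic-mesenchyme-like and 3.07 ± 2.66 CPM in Myl7-positive lateral-plate-like cells. Definitive-endoderm-like cells had 2.11, 1.73 and 2.49 CPM, and in them 4.12% ± 0.988 of cells had a UMI, against 0.499% ± 0.210 of erythroid-like cells. In Myl7-positive cardiac-like cells the share was 24.7% ± 7.03, and 6.98% ± 5.05 after thinning.

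**Figure D1:**
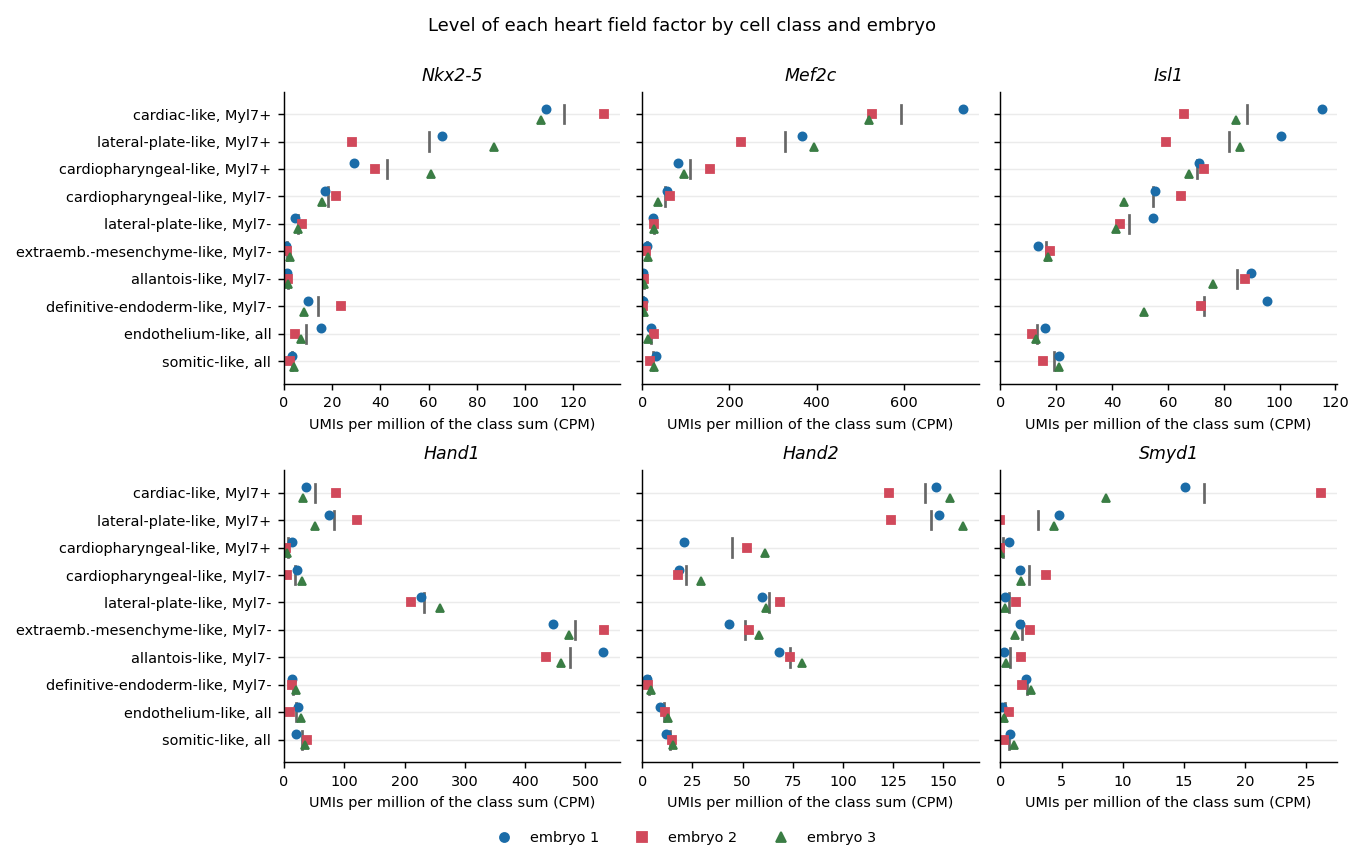
Level of each gene in CPM (UMIs per 1000000 of the class sum, linear axes that differ between panels) in 10 cell classes; each symbol is 1 embryo and the grey bar is the mean of 3. Nkx2-5, Mef2c and Smyd1 are highest in Myl7-positive cardiac-like cells, Hand1 in extraembryonic-mesenchyme-like and allantois-like cells, and Isl1 has 5 overlapping leading classes.

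The question of the first comparison was how the members differ between Myl7-positive cardiac-like and Myl7-negative cardiopharyngeal-like mesoderm. Myl7-negative means at or under the limit, not without Myl7. Of the Myl7-negative cardiopharyngeal-like cells, 66.4% ± 18.8 had a UMI of Myl7. Their level was 58.8 ± 19.0 CPM, against 1982 ± 458 CPM in the Myl7-positive cardiac-like cells. The 5 members that reached the level of the filter on low counts in both groups were higher in the Myl7-positive cardiac-like sums, where 7.26% of 9494 genes tested were called higher and 4.9% lower. The log2 fold change was 3.54 ± 0.168 (SE) for Mef2c, 2.73 ± 0.148 for Nkx2-5 and 2.72 ± 0.166 for Hand2. The adjusted p of edgeR's quasi-likelihood test was 2.46e-09 for Mef2c, 9.48e-09 for Nkx2-5 and 3.10e-08 for Hand2. Smyd1 passed the filter through the cardiac-like sums alone, so that its direction was set by the filter, and only its levels are given, 16.6 against 2.33 CPM.

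Isl1 and Hand1 passed the test of that comparison by less. Isl1 was higher by 0.70 ± 0.180 on the log2 scale (edgeR, adjusted p = 0.0180), and its lowest cardiac value of 65.7 CPM lay just above the highest cardiopharyngeal value of 64.6 CPM. Without embryo 1 the difference was 0.45 (edgeR, adjusted p = 0.185) and without embryo 3 it was 0.60 (adjusted p = 0.188), so the call was lost in both fits. Fits with an embryo left out had fewer sums and passed 718 to 807 genes, against 1154 with all embryos. Hand1 was higher by 1.55 ± 0.414 (edgeR, adjusted p = 0.0221), with cardiopharyngeal values of 21.3, 4.62 and 29.2 CPM. Without embryo 2, which had both the highest cardiac and the lowest cardiopharyngeal value, it was 0.48 (edgeR, adjusted p = 0.2998), and by DESeq2 with all embryos it was 1.51 (adjusted p = 0.433). With the embryo as a block, the members kept their calls and 1762 genes passed in place of 1154, while 718 passed without embryo 2. The 4 extraembryonic mesenchyme markers together had 156, 237 and 135 CPM in the cardiac-like sums of embryos 1, 2 and 3, highest in embryo 2 as Hand1 was, and a mean of 43.3 CPM in the cardiopharyngeal-like sums. Their part in the Hand1 values was not tested.

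The same order was read over bins of Myl7 within the cardiac-like, cardiopharyngeal-like and lateral-plate-like cells pooled. Mean Nkx2-5 was 9.69 ± 1.44 CPM in cells at or under the Myl7 limit, 47.0 ± 17.0 from the limit to 5 UMIs per 10000, 88.8 ± 9.69 from 5 to 15 and 140 ± 26.8 CPM over 15. It increased from bin to bin in every embryo, and so did Mef2c, from 34.4 ± 3.75 to 170 ± 24.6, 467 ± 118 and 735 ± 126 CPM. Isl1 increased over the first 3 bins, from 48.5 ± 6.35 to 97.4 ± 25.6 CPM, and was 84.8 ± 27.1 CPM in the last, with embryo 3 higher and embryos 1 and 2 lower than in the bin before.

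Smyd1 was low in the first 2 bins, at 1.17 ± 0.651 and 0.685 ± 1.19 CPM, and higher in the last 2, at 8.58 ± 2.25 and 23.8 ± 11.3 CPM. Hand2 went from 51.0 ± 5.03 to 158 ± 42.1 CPM, with the last 2 bins overlapping. Hand1 went the other way, from 166 ± 15.3 CPM at or under the limit to 44.2 ± 17.8 CPM in the next bin, and the 3 bins above the limit overlapped. Tbx1, a marker of the cardiopharyngeal-like class, was 51.7 ± 0.973, 60.4 ± 8.14, 8.31 ± 1.87 and 2.81 ± 2.09 CPM over the bins, so the mix of classes changed with Myl7 as well. These values are a description of pooled classes and were not tested.

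**Figure D2:**
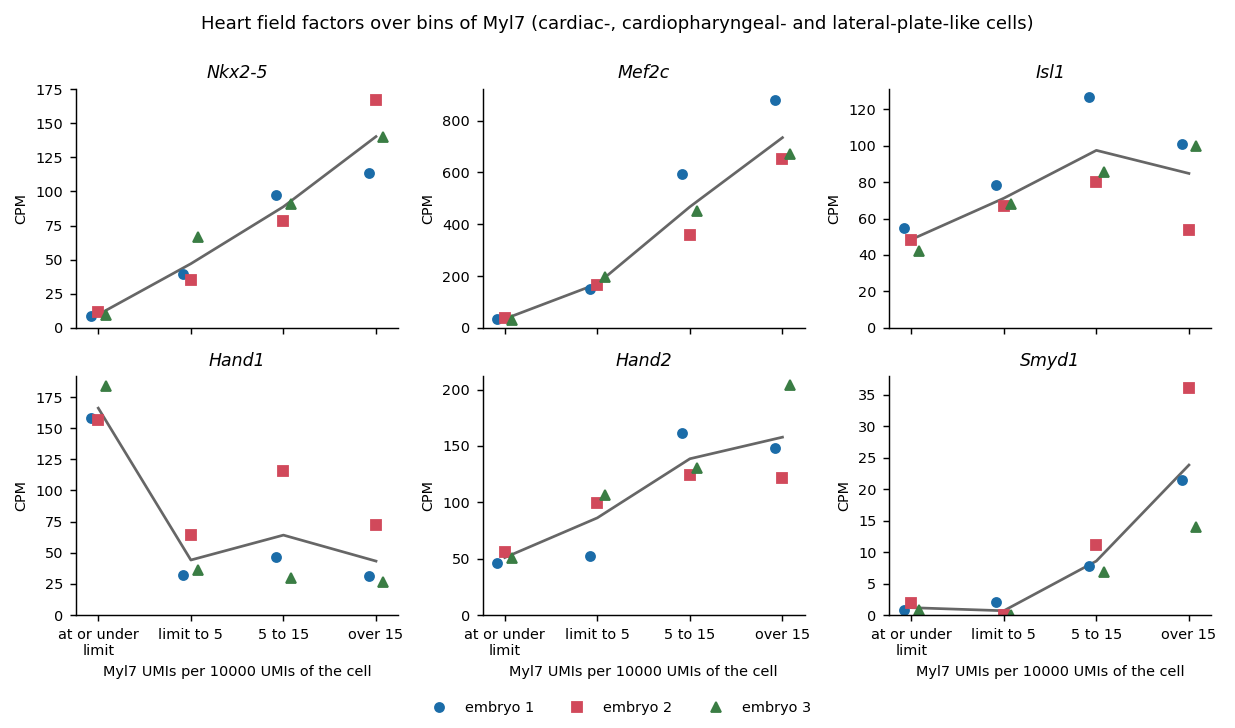
Level of each gene in CPM (linear axes that differ between panels) over 4 bins of Myl7 UMIs per 10000 UMIs of the cell; each symbol is 1 embryo and the line joins the means of 3. Nkx2-5 and Mef2c increase from bin to bin in every embryo, Smyd1 is near 0 in the first 2 bins, and Hand1 is highest at or under the Myl7 limit.

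Against all other kept cells of the embryo, 5 of the 6 members were higher in Myl7-positive cardiac-like cells, in a test in which 5.73% of 15493 genes were called higher and 6.57% lower. Mef2c was higher by 4.85 ± 0.187 on the log2 scale, Smyd1 by 4.55 ± 0.363, Nkx2-5 by 4.52 ± 0.123, Hand2 by 2.82 ± 0.142 and Isl1 by 1.97 ± 0.177 (edgeR, adjusted p from 2.88e-08 for Nkx2-5 to 6.55e-05 for Isl1). Hand1, with a mean of 51.5 CPM in the cardiac-like cells and 101 CPM in the rest, had a log2 fold change of -0.84 ± 0.308 and did not pass (edgeR, adjusted p = 0.115). With the embryo as a block Hand1 was lower by the same -0.84 (edgeR, adjusted p = 2.24e-06), and without embryo 2 it was -1.52 (adjusted p = 0.00477), so its call turned on the fit and on embryo 2. Myl7-negative extraembryonic-mesenchyme-like cells held 32.2% ± 3.52 of the UMIs of Hand1. The extraembryonic-mesenchyme-like class, part of the rest, had 321, 446 and 742 cells in embryos 1, 2 and 3. The bearing of these numbers on the Hand1 difference was not tested. The block raised the number of genes called from 1906 to 3253, and without embryos 2 and 3 it was 947 and 801. This comparison and the 2 with extraembryonic mesenchyme and endothelium use the same cardiac-like sums as the first, so they are not independent of it or of each other.

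The third comparison set the Myl7-negative cardiopharyngeal-like cells against somitic-like mesoderm, to show how the members differ between 2 kinds of mesoderm outside the cardiac-like class. Of 10943 genes tested, 2.08% were called higher and 2.39% lower, and 3 of the 5 members tested were higher. Nkx2-5 was higher by 2.45 ± 0.233 on the log2 scale (edgeR, adjusted p = 4.16e-05), with somitic values of 3.12, 2.56 and 4.29 CPM. Isl1 was higher by 1.52 ± 0.154 (adjusted p = 7.73e-05), with somitic values of 21.1, 15.4 and 21.2 CPM. These 2 members kept their calls in each setting tried. Mef2c was higher by 1.006 ± 0.196 (adjusted p = 0.00880), from somitic values of 31.0, 18.7 and 27.4 CPM, but without embryo 1 its adjusted p was 0.0617 and without embryo 2 it was 0.132.

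Hand2 and Hand1 did not pass that test. Hand2 differed by 0.66 ± 0.203 on the log2 scale (edgeR, adjusted p = 0.106), with somitic values of 12.1, 14.8 and 15.3 CPM below the lowest cardiopharyngeal value, and with the embryo as a block it was higher by 0.67 (edgeR, adjusted p = 0.00131). Hand1 differed by -0.65 ± 0.376 (edgeR, adjusted p = 0.526), and its values overlapped, at 19.1, 37.6 and 35.2 CPM in somitic-like cells. Its difference was -1.05 without embryo 1 and -0.10 without embryo 2, so its size rested on single embryos. Without the filter on low counts both were called by edgeR, Hand2 at 0.63 (adjusted p = 0.0110) and Hand1 at -0.67 (adjusted p = 0.00111). Smyd1, with 19 UMIs in all the cardiopharyngeal-like cells, was too low to be tested. With the block 1405 genes passed in place of 489, and without any 1 embryo 222 to 274 did.

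In the extraembryonic-mesenchyme-like cells, Myl7-positive and Myl7-negative together, Hand1 stood at 442, 543 and 462 CPM and was higher than in Myl7-positive cardiac-like cells by 3.08 ± 0.262 on the log2 scale (edgeR, adjusted p = 5.16e-06). Mef2c, Smyd1, Isl1 and Hand2 were lower there, where 8.77% of 11315 genes were called higher and 7.02% lower. Their log2 fold changes were -4.995 ± 0.202 for Mef2c, -3.32 ± 0.341 for Smyd1, -2.37 ± 0.192 for Isl1 and -1.37 ± 0.129 for Hand2 (edgeR, adjusted p from 1.08e-08 to 2.64e-05). Nkx2-5 passed the filter on low counts through the cardiac-like sums alone and had 1.31, 2.27 and 4.53 CPM in the extraembryonic-mesenchyme-like sums. Hand1 and Hand2, the 2 related helix-loop-helix genes, thus differed in opposite directions between these classes in 3 of 3 embryos. The 4 markers of the class summed to 1124 to 1433 CPM in it and to 135 to 237 CPM in the cardiac-like sums. With the embryo as a block the calls held and 3002 genes passed in place of 1786, and without embryos 2 and 3 it was 989 and 1100.

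In endothelium-like cells, marked by Kdr, Pecam1 and Cdh5 among others, the 5 members that reached the filter's level in both groups were lower than in Myl7-positive cardiac-like cells, where 17.1% of 10509 genes were called higher and 14.6% lower. Mef2c, which is also known from endothelium, had 19.9, 27.6 and 12.3 CPM there and differed by -4.95 ± 0.232 on the log2 scale (edgeR, adjusted p = 6.16e-08). Nkx2-5 differed by -3.69 ± 0.275, Hand2 by -3.68 ± 0.153 and Isl1 by -2.73 ± 0.206 (edgeR, adjusted p from 3.78e-08 to 2.13e-06). Smyd1 passed the filter through the cardiac-like sums alone and had 0.387 CPM in the endothelium-like sums. Hand1 differed by -1.41 ± 0.369 (edgeR, adjusted p = 0.0126), and without embryo 2 by -0.47 (adjusted p = 0.140). Without embryos 2 and 3, 1971 and 2019 genes passed in place of 3332. Within the endothelium-like cells Nkx2-5 was 26.3, 13.9 and 20.4 CPM in Myl7-positive and 10.8, 2.76 and 5.01 CPM in Myl7-negative cells, higher in the former in 3 of 3 embryos. Such differences by Myl7 were also seen outside mesoderm. Mef2c had 132 CPM in the few Myl7-positive neural-plate-like cells (2 embryos), against 8.17 CPM in all cells of that class. Median depth in that class was 33641.5 UMIs in Myl7-positive and 21046 in Myl7-negative cells. The cause of the differences by Myl7 within classes was not tested.

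**Figure D3:**
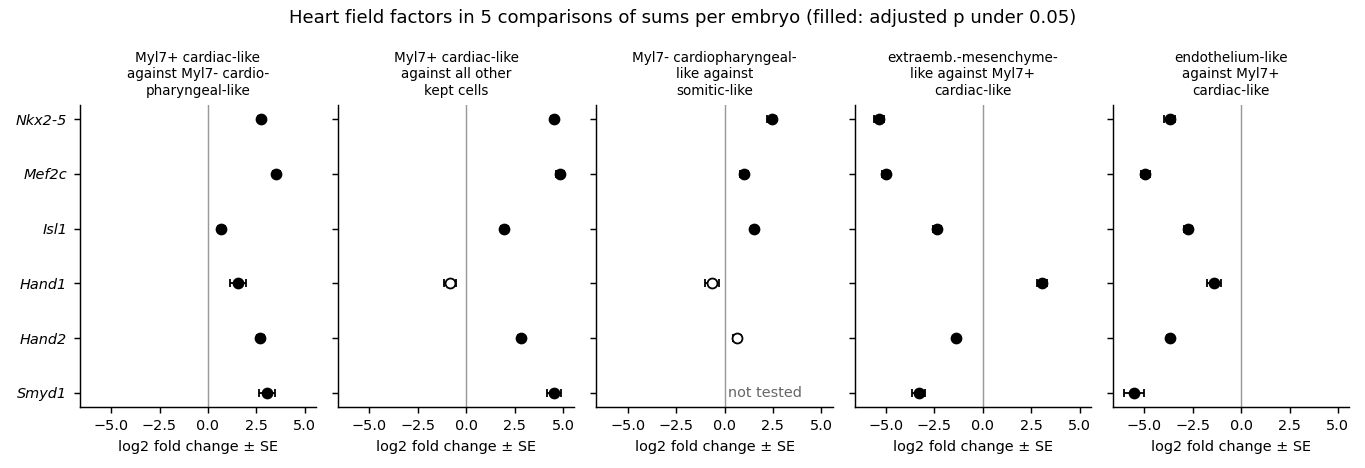
Log2 fold change (x axis, points) with standard error (bars) of each gene in 5 edgeR comparisons of sums per embryo, 3 against 3; filled points passed an adjusted p of 0.05 and open points did not. Hand1 is the 1 member that is higher in extraembryonic-mesenchyme-like cells. Smyd1 in the first and last panels and Nkx2-5 in the extraembryonic mesenchyme panel passed the filter on low counts through the cardiac-like sums alone.

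Within the Myl7-positive cardiac-like class, thinned to 5000 UMIs per cell, 179 of 377 cells (47.5%) had at least 3 members and 7 cells had none. This count and those of the next sentence pool the 3 embryos, and embryo 2 gave 215 of the 377 cells. The same count of at least 3 members was 20 of 413 in Myl7-negative cardiopharyngeal-like cells (4.84%), 43 of 148 in Myl7-positive lateral-plate-like cells (29.1%) and 71 of 701 in Myl7-negative allantois-like cells (10.1%). Of the erythroid-like Myl7-negative cells of embryos 2 and 3, 95.5% ± 0.814 had none. At full depth 13 of the 377 cardiac-like cells had a UMI of all 6.

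Pairs were compared with the number expected if the 2 genes were spread over the cells of an embryo independently. Nkx2-5 and Mef2c were found together in 183 of 377 thinned cardiac-like cells where 176 were expected. Mef2c was in 94.9% ± 3.14 of the Nkx2-5-positive cells and in 92.1% ± 5.09 of all thinned cardiac-like cells. Nkx2-5 with Isl1 gave 74 cells where 58.1 were expected, above the expected number in all 3 embryos (1.10 to 1.43 times). Isl1 with Hand2 gave 68 where 57.8 were expected, 1.10 to 1.22 times over the embryos. At full depth, where most of these cells had Hand2, Isl1 with Hand2 lay at 0.987 to 1.03 times the expected number. Nkx2-5 with Isl1 lay at 1.05 to 1.09 times at that depth.

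Pairs with Hand1 lay lower. Nkx2-5 with Hand1 was found in 16 cells where 29.4 were expected, at 0.529 to 0.613 of the expected number in the 3 embryos, and Isl1 with Hand1 in 8 cells where 16.3 were expected (0.326 to 0.740). Hand1 with Hand2 gave 26 cells where 28.3 were expected, close to independence. Hand1 with Mef2c gave 48 where 51.8 were expected. Mef2c was in 86 of 88, 195 of 215 and 65 of 74 thinned cells of embryos 1, 2 and 3. A gene found in nearly all cells keeps this ratio from rising far above 1. It also limits how far the ratio can fall, more so where the other gene is common. Both limits apply to Nkx2-5 with Mef2c, so the ratio of that pair was confined to a range around 1. For Hand1 with Mef2c the ratio was 1.02, 0.928 and 0.854 in embryos 1, 2 and 3. At full depth Nkx2-5 with Hand1 gave 77 cells where 93.6 were expected. The counts per embryo were small, 2, 11 and 3 thinned cells for Nkx2-5 with Hand1, and no test was made across cells.

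**Figure D4:**
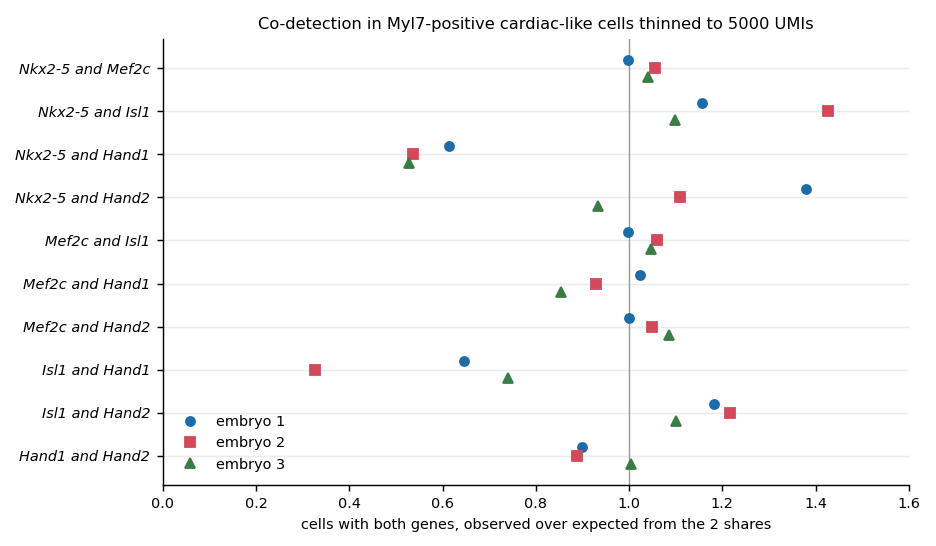
Observed over expected number of Myl7-positive cardiac-like cells with both genes of a pair (x axis, linear), after thinning each cell to 5000 UMIs; each symbol is 1 embryo and the line at 1 marks independence. Nkx2-5 with Hand1 and Isl1 with Hand1 lie below 1 in all 3 embryos, and Nkx2-5 with Isl1 and Isl1 with Hand2 above it. Pairs with Smyd1 are left out for their few cells.

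Outside the cardiac-like class other pairs were common. In Myl7-negative allantois-like cells 196 of 701 thinned cells had Isl1 and Hand1 where 193 were expected, and 177 had Hand1 and Hand2 where 174 were expected. In Myl7-negative definitive-endoderm-like cells Nkx2-5 and Isl1 were together in 44 of 1105 cells where 17.1 were expected, 2.05 to 2.90 times over the embryos, and 64.5% ± 21.0 of the Nkx2-5-positive cells had Isl1. In Myl7-negative cardiopharyngeal-like cells Mef2c and Isl1 were together in 29 of 413 cells where 16.1 were expected (1.69 to 1.90 times), and Isl1 and Hand2 in 22 where 8.69 were expected (2.07 to 3.37 times). In Myl7-negative lateral-plate-like cells Mef2c and Hand1 were together in 18 of 890 cells where 35.5 were expected (0.395 to 0.611 times).

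Over the 65 sums of the classes and embryos, log2(CPM + 1) of Nkx2-5 and Mef2c had a Pearson r of 0.85, and that of Nkx2-5 and Hand1 -0.14, as a description over sums that share embryos and depth. Of the 10297 other genes of at least 10 CPM in some class, Npr3, Myocd and Ccdc141 were most like Nkx2-5 (r = 0.82 to 0.87), and Tbx5, Rbm24 and Myocd most like Mef2c (0.89 to 0.92). Has2, Tgfb2 and Jag1 were most like Isl1 (0.84 to 0.85), Hoxd1, Spin2c and Lypd6 most like Hand1 (0.85 to 0.90), Gata5, Rbm20 and Smarcd3 most like Hand2 (0.89 to 0.90), and Sphkap, Ryr2 and Pgam2 most like Smyd1 (0.74 to 0.75).

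Partners and targets of the members came from a list of 41 heart regulators and chamber genes. Between Myl7-positive cardiac-like and Myl7-negative cardiopharyngeal-like cells 18 of them reached the filter's level in both groups, of which 9 were higher, 3 lower and 6 did not pass. Their median log2 fold change was 0.42 beside -0.01 over all genes tested, of which 7.26% were called higher and 4.9% lower. Among the GATA factors and cofactors Gata5 was higher by 4.17 (142 against 7.91 CPM), Gata4 by 2.82 and Gata6 by 1.39. Tbx3 was higher by 1.66, and Srf, which binds the muscle CArG element, by 0.93. Lower were Fgf8 (-0.90), a signal of the second heart field, and Lmo4 (-0.48). Of the 6 partner proteins, which include the Isl1 cofactor Ldb1 and the Hand partner Tcf3, 5 did not pass, as was so for most genes tested.

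Other genes of the list passed the filter through the cardiac-like sums alone, and their levels are given without a count. Myocd, a coactivator of SRF, had 128 against 2.05 CPM, Tbx20 had 90.1 against 2.93 CPM and Tbx5 75.0 against 3.32 CPM. Bmp2 had 80.9 against 4.44 CPM. Csrp3, a muscle LIM protein gene, had 72.1 CPM in the cardiac-like cells and 0 UMIs in the cardiopharyngeal-like cells, at least 212-fold higher against a floor of 3 counts over the group. Mesp1, known from earlier cardiac mesoderm, passed through the cardiopharyngeal-like sums alone, at 4.25 against 14.3 CPM.

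Against all other kept cells 5.73% of all genes tested were called higher and 6.57% lower. Of the 41 companions 34 reached the filter's level in both groups, with 20 higher, 2 lower and a median of 1.14 beside -0.06 over all genes tested. All 5 GATA factors and cofactors were among the higher ones. None of the 6 partner proteins passed, as was so for most genes tested. Between Myl7-negative cardiopharyngeal-like and somitic-like cells 2.08% of all genes tested were called higher and 2.39% lower. Of the list 25 reached the filter's level in both groups, with a median of 0.06 beside 0.01. Of these, 3 were higher (among them Fgf8 by 1.85 and Zfpm1 by 0.95) and 2 lower (Mesp1, -1.36, and Meis2, -0.77). Gata4, Gata5 and Gata6 did not pass there.

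In extraembryonic-mesenchyme-like against Myl7-positive cardiac-like cells 8.77% of all genes tested were called higher and 7.02% lower. Of the list 29 reached the filter's level in both groups, with 3 higher and 16 lower and a median of -0.83 beside -0.002. Those higher there, as Hand1 was, included Tbx3 (1.10) and Meis2 (0.49). In endothelium-like cells 17.1% of all genes tested were called higher and 14.6% lower. Of the list 24 reached the filter's level in both groups, with 3 higher and 13 lower and a median of -0.59 beside -0.004. Mef2a, a paralog of Mef2c, was higher there, at 116 against 35.3 CPM (1.68), whereas Mef2c was lower.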

How the data were processed

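Single-cell libraries of 3 wild-type embryos were analysed, 1 library per embryo, with the embryo as the replicate. The authors aligned reads with Cell Ranger (version 3.1.0) to mm10 and deposited raw UMI counts for each barcode called a cell, without normalization. The number of barcodes equals the number of cells the study states before its quality control. Following the study's methods, barcodes with fewer than 1500 genes, more than 8500 genes (7500 in embryo 2) or more than 10% mitochondrial UMIs were removed. Barcodes under 0.5% were removed in place of the clusters low in mitochondrial RNA that the authors removed. The 6 members and the lists of markers and companions were chosen with earlier results of these data known.

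For each marker, log(UMIs per 10000 + 1) was scaled to its 99th percentile and averaged over the list. A class needed a score of at least 0.2 and a next best score of at most 80% of it. These limits, the 0.5% minimum and the Myl7 limits were set after marker values, but not member values, were seen. Cells with markers of 2 classes (3564) stood in for a doublet filter and were left out, as were 1153 with low scores and 173 mesodermal ones with epithelial markers. A share is that of the cells in which 1 UMI or more was counted. Thinning drew 5000 UMIs per cell and left out 18, 61 and 33 shallower cells.

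Counts were summed per embryo and class and compared, 3 sums against 3, with edgeR (version 4.0.16, R 4.3.3) by glmQLFit and glmQLFTest, TMM normalization, filterByExpr and Benjamini-Hochberg adjustment over all genes tested, at an adjusted p of 0.05, 2-sided. The code was tested on simulated data. The standard error is the log2 fold change over the root of its F value. Sums of the 2 classes of an embryo come from the same animal, and their deviations from the class means had correlations over genes of 0.134 to 0.438, so the embryo pairs them. The blocked fit is given where it changes a call. Other alternatives were DESeq2 (version 1.42.0), RLE factors, no filter on low counts, each embryo left out, stricter Myl7 and marker limits, cells of 2 classes kept, and barcodes low in mitochondrial RNA or over the gene maximum kept. Depth was 144790573 to 191843539 UMIs in kept cells, and each ± after a share is the SD over embryos. Named are the 6 members, at most 4 companions per group with the largest change among those called, and for each member the 3 genes most like it. Mrtfa and Mrtfb are listed in the files as Mkl1 and Mkl2. Positions are from GENCODE vM21 (GRCm38), upstream sequences from RefSeq (GRCm38.p6), where 5 of the 6 members had an entry. Windows that overlap a member's own exon are not shown, except that of Isl1, which overlaps it by its last base. Lists cover 41 companions. Genes that all 3 sums of only 1 group carried through filterByExpr are given by their levels and are in no count of called members or companions. Values of some genes on the lists are not reported here.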

Additional observations from a re-analysis of the deposited data

Results flagged for a closer look

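In 573 barcodes left out for mitochondrial RNA under the minimum (median depth 7878 UMIs), all 6 members had UMIs above the 3 counts that a count of 0 allows. There were 344 UMIs of Hand1, 185 of Isl1, 62 of Nkx2-5, 53 of Hand2, 39 of Mef2c and 5 of Smyd1. In CPM this was 66.9 for Hand1 against 99.8 in kept cells, 36.0 against 24.5 for Isl1, 12.1 against 7.12 for Nkx2-5, 10.3 against 22.3 for Hand2, 7.59 against 30.7 for Mef2c and 0.973 against 1.07 for Smyd1. Myl7 had 35.2 CPM in these barcodes and 80.8 in kept cells.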

How the results depend on the processing

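No member changed direction in any setting. With the embryo as a replicate block the called genes were 1762 (first comparison, 1154 without it), 3253 (against all other cells, 1906), 1405 (cardiopharyngeal against somitic, 489), 3002 (extraembryonic mesenchyme, 1786) and 4302 (endothelium, 3332), Hand1 against all other cells was -0.84 and Hand2 in the somitic comparison 0.67, both then called, and the block changed no other member's call. Stricter Myl7 limits gave 738 genes in the first and 221 in the somitic comparison, and no filter on low counts gave 828 in the latter. Leaving out each embryo gave 718 to 807 genes in the first comparison, 801 to 1734 against all other cells, 222 to 274 against somitic-like cells, 989 to 1232 for extraembryonic mesenchyme and 1971 to 3254 for endothelium. Over those fits Isl1 in the first comparison ranged from 0.45 to 1.02, Hand1 there from 0.48 to 2.13, Hand1 against all other cells from -1.52 to -0.49, Hand1 against somitic-like cells from -1.05 to -0.10, Mef2c against somitic-like cells from 0.70 to 1.23 and Hand1 in endothelium from -1.89 to -0.47. By DESeq2 Hand1 was 1.51 in the first comparison and -1.36 in endothelium, neither called. Against all other cells Hand1 was called at -1.06 under a stricter marker limit and at -0.86 without the filter. Against somitic-like cells Mef2c was not called with cells of 2 classes kept (0.75) or under a stricter marker limit (0.73), and without the filter Hand1 (-0.67) and Hand2 (0.63) were. Thinning to 5000 UMIs lowered the cardiac shares to 49.3% (Nkx2-5), 92.1% (Mef2c), 34.1% (Isl1), 13.9% (Hand1), 51.1% (Hand2) and 6.98% (Smyd1), and keeping the barcodes low in mitochondrial RNA gave 32.2% for Hand1. Against all other cells the median log2 fold change of all genes was 0.12 by DESeq2 and -0.06 by edgeR, over different sets of genes. The causes were not tested. With 3 embryos and 74 to 215 cardiac-like cells in each, Smyd1 is the member that depth limits most.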
